A study of Mus musculus with 2 samples.

Results

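The genes described here encode the subunits of the mouse proteasome, its activators and the chaperones of its regulatory particle. They were taken by symbol, as every gene whose symbol is Psma, Psmb, Psmc, Psmd or Psme followed by a number, with symbols of annotated pseudogenes left out. The rule found 45 of the 43346 mouse gene entries, and it used no measured value. By role they fell into 7 alpha and 7 beta subunits of the constitutive core, 5 tissue paralogs of core subunits, 9 subunits of the base and 8 of the lid of the regulatory particle, 3 base chaperones and 5 activator genes. The remaining gene, Psmc3ip, matched the rule by its symbol alone: it encodes a meiotic recombination factor that binds a base subunit and is not a proteasome subunit. Subunits with other symbols, Adrm1 of the base and Sem1 of the lid, were not taken in. The base and lid below are therefore the genes of the rule and not the complete parts.

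Polyadenylated RNA was sequenced in G1E-ER4, an immortalized mouse erythroid line without functional endogenous Gata1, in which a fusion of GATA1 with an estrogen receptor ligand-binding domain is switched on by estradiol. Both libraries belong to 1 group, cells given 10 nM 17beta-estradiol for 24 h, and are labelled biological replicates 1 and 2. Their labels point to a shared biosample record. The p-values and spreads below therefore measure the distance between these 2 libraries, which could be technical. Untreated cells were not analysed here, and no value says what estradiol did. Replicate 1 was 5.09-fold deeper than replicate 2, with totals of 70451042 and 13841487 estimated counts. In these bulk libraries fewer cells of a type and less RNA per cell cannot be told apart.

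All 12 erythroid markers of the lists used here reached at least 1 TPM (transcripts-per-million, a length-corrected level) in both libraries. None of 14 markers of other blood, endothelial and stromal cells did, and 5 of these 14 were at 0 in both. The summed level of those 14 markers was 0.870 TPM in replicate 1 and 2.06 TPM in replicate 2, and that of the erythroid markers was 235962 and 94166 TPM. Gata1 is among the erythroid markers, with 3038 and 2940 TPM. These values do not separate the endogenous gene from the GATA1 fusion.

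The proteasome degrades proteins that carry ubiquitin chains. Its barrel-shaped core has outer rings of alpha subunits, which gate the channel, and inner rings of beta subunits, among which Psmb5, Psmb6 and Psmb7 carry the catalytic sites. The regulatory particle caps the core: its base holds the ATPases that unfold substrates and feed them into the channel, and its lid holds the deubiquitinase Psmd14. In cells exposed to interferon gamma and in many immune cells, Psmb8, Psmb9 and Psmb10 replace the catalytic subunits to form the immunoproteasome. Developing red cells clear much of their proteome through ubiquitin and the proteasome.

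Promoter sequences are shown for a pair of catalytic subunits, for the immunoproteasome subunits that take their places, and for a lid subunit that holds 2 of the motifs searched. They are RefSeq sequences on GRCm38.p6, 250 bases up to the RefSeq start of each gene, written in the direction of transcription, with the motif matches in capitals. Psmb5 (chr14:54617996-54618245, minus strand) and Psmb6 (chr11:70525107-70525356, plus strand) each hold the core of the antioxidant response element, TGACNNNGC, which the transcription factor NFE2L1 is known to use in proteasome genes. Psmb8 (chr17:34197945-34198194, plus strand) holds none of the 7 motifs, and Psmb9 (chr17:34187331-34187580, minus strand) holds a CCAAT box, here on the opposite strand. Psmd12 (chr11:107479278-107479527, plus strand) holds the antioxidant response element core and an ETS motif, CCGGAAG, both on the opposite strand.

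Psmb5: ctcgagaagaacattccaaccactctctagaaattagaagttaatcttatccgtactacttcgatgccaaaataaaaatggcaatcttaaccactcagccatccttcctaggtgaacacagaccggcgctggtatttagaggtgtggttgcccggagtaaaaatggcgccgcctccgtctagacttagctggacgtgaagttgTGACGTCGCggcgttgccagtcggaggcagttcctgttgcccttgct
Psmb6: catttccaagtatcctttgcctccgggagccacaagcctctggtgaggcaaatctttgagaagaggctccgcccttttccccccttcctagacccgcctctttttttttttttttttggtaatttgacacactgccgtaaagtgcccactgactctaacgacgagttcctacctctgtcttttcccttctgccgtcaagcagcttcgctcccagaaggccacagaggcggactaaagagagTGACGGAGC
Psmb8: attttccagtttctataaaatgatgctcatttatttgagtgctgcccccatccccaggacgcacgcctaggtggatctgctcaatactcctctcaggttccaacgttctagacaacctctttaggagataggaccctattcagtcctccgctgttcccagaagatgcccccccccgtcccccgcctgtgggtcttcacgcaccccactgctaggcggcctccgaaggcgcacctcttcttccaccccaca
Psmb9: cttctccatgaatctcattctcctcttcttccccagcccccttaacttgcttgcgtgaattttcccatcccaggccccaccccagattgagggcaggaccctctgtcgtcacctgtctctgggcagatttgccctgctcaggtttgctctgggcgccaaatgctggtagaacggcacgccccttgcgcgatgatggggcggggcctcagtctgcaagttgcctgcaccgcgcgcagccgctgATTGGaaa
Psmd12: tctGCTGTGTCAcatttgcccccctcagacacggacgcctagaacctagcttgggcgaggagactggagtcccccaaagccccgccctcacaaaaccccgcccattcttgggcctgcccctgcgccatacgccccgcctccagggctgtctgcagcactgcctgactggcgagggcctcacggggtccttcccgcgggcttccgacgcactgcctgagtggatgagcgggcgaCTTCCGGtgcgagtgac

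Of the 45 genes, 38 matched the RefSeq promoter table, through 41 of its 32851 windows of 300 bases, each with 250 bases before and 50 after the start. Psma8, Psmb1, Psmb2, Psmb7, Psmc3, Psmd3 and Psmd7 were not matched. Every motif was searched on both strands, and matches that overlap were counted for each motif. The antioxidant response element core lay in 6 of the 41 windows (14.6%), those of Psmb5, Psmb6, Psmc6, Psmd9, Psmd12 and Psme4, against 12.4% of all windows. The ETS motif CCGGAAG lay in 14 windows of 13 genes (34.1%), against 8.86% of all windows. These 13 were Psma6, Psmc1, Psmc2, Psmc6, Psmd2, Psmd4, Psmd6, Psmd11, Psmd12, Psmd13, Psme3, Psme4 and Psmc3ip. Of them 9 encode subunits of the base or lid, of which Psmc3, Psmd3 and Psmd7 had no window. None of the 13 encodes a beta subunit, but Psmb1, Psmb2 and Psmb7 had no window to search.

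The CCAAT box lay in 36.6% of the windows of these genes and in 37.4% of all windows, nearly the same share. The YY1 motif AAGATGGC lay in 7.32% against 2.75%, in Psma2, Psmb6 and Psmc5, and the NRF1 motif in 2.44% against 0.971%, in Psma2 alone. The core of the interferon-stimulated response element lay in 9.76% against 3.44%. The 4 genes that held it were Psmb3, Psmd4, Psmd9 and Psme1. The GATA motif AGATAA lay in 4.88% of the windows, in Psmc6 and Psmd9, and in 11.2% of all windows. A match is a string of letters in a window and not a measured binding site.

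At least 1 TPM in both libraries was reached by 30 of the 45 genes, beside 33.1% of 21474 protein-coding genes. In replicate 1 alone 40 of the 45 reached it. The median level over all 45 was 25.2 TPM in replicate 1 and 4.22 TPM in replicate 2. Their share of all counts was 0.290% in replicate 1, with a 95% interval by Wilson's method of 0.288 to 0.291%. The share in replicate 2 was 0.149% (0.147 to 0.151%); all intervals and limits here cover counting error only. The median over all 21474 protein-coding genes, of which 7107 reached 1 TPM in both libraries, was 0.01 TPM in replicate 1 and 0 in replicate 2.

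**Figure D1:**
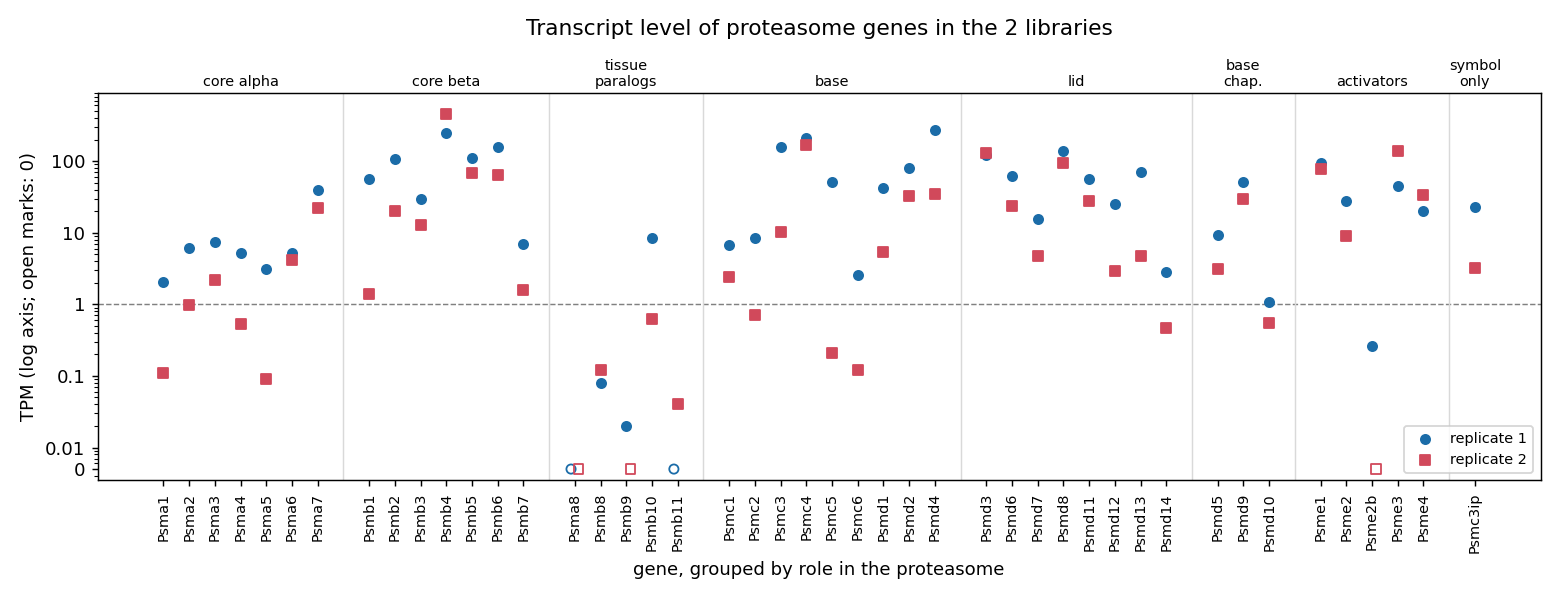
Level of each of the 45 genes in replicate 1 (circles) and replicate 2 (squares), in TPM on a log axis, grouped by role; open marks are values of 0 and the dashed line is 1 TPM. Psmb4 is the highest gene in replicate 2 (454 TPM), the alpha subunits other than Psma7 lie under 10 TPM in both libraries, and Psma8 is at 0 in both.

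The alpha subunits, which form the outer rings of the core, had the lowest levels of the constitutive subunits, with a median of 5.22 TPM in replicate 1 and 0.990 TPM in replicate 2. Psma7 stood apart among them with 39.0 TPM in replicate 1 and 22.2 TPM in replicate 2. The other 6 alpha genes ranged from 2.05 TPM (Psma1) to 7.54 TPM (Psma3) in replicate 1 and from 0.0900 TPM (Psma5) to 4.22 TPM (Psma6) in replicate 2. Psma7 was above every other alpha gene in both libraries, so the groups of values did not overlap. Since each ring holds all of these subunits, their transcripts were present at levels up to 19-fold apart in replicate 1 for proteins that are built in at equal number. The same span was 246-fold in replicate 2, where Psma1, Psma4 and Psma5 rested on 1, 6 and 1.14 estimated counts.

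The beta subunits, which form the inner rings, were the most abundant part of the core, with a median of 108 TPM in replicate 1 and 20.3 TPM in replicate 2. Psmb4 (ENSMUSG00000005779.8, mm10 chromosome 3, 94884093 to 94886961, minus strand), a noncatalytic subunit, reached 251 TPM in replicate 1 and 454 TPM in replicate 2. It was the highest of the 31 constitutive core, base and lid genes by mean level (353 ± 143 TPM, SD, n = 2), and its range did not overlap that of the next gene in the order. The catalytic subunits split: Psmb5, of the chymotrypsin-like site, had 112 and 67.6 TPM, and Psmb6, of the caspase-like site, had 160 and 63.2 TPM. Psmb7, of the trypsin-like site, had 6.92 and 1.61 TPM. Psmb7 was thus below both other catalytic subunits in both libraries, by the span of 23.1-fold to the highest of them in replicate 1 and 42.0-fold in replicate 2. Of the noncatalytic subunits, Psmb2 had 108 and 20.3 TPM, Psmb1 56.5 and 1.38 TPM, and Psmb3 29.7 and 13.0 TPM. The values of Psmb2 are the medians of the class. An estimated 62.6% and 58.2% of the TPM of Psmb2 were of a noncoding transcript of 547 bases. Psmb7 shares exon bases with Nek6 on the other strand; the sources used here do not say whether counting used strand.

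The base had a median of 50.9 TPM in replicate 1 and 5.37 TPM in replicate 2. Its 6 ATPases form a ring, yet their transcripts lay furthest apart of any ring, from 2.57 TPM (Psmc6) to 212 TPM (Psmc4) in replicate 1 and from 0.120 TPM (Psmc6) to 169 TPM (Psmc4) in replicate 2. Psmc4 (ENSMUSG00000030603.11, chromosome 7, 28041707 to 28050101, minus strand) was the highest ATPase in TPM in both libraries. In counts Psmc3 was above it in replicate 1, with 15414 against 8021. The leading transcript of Psmc4 has 587 bases and that of Psmc3 has 1636, so this order rests on the estimated isoform shares. Psmc3 had 158 and 10.3 TPM, and Psmc5 had 50.9 and 0.210 TPM. Psmc1 and Psmc2 lay lower, at 6.85 and 8.54 TPM in replicate 1 and at 2.38 and 0.700 TPM in replicate 2. Of the subunits without ATPase activity, the ubiquitin receptor gene Psmd4 (ENSMUSG00000005625.11, chromosome 3, 95032694 to 95042614, minus strand) had 276 TPM in replicate 1, the highest level of any of the 45 genes there, and 35.2 TPM in replicate 2. The scaffold subunits Psmd2 and Psmd1, on which ubiquitin receptors and substrates dock, had 79.6 and 32.4 TPM and 42.6 and 5.37 TPM. These 3 genes kept a span of 6.47-fold in replicate 1 and 6.55-fold in replicate 2.

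The lid had a median of 59.4 TPM in replicate 1 and 14.2 TPM in replicate 2. Psmd3, a scaffold subunit of the lid, had 120 and 131 TPM, close together in the 2 libraries (126 ± 7.67 TPM, SD, n = 2). Psmd8 had 139 and 95.4 TPM, Psmd6 62.2 and 23.7 TPM, and Psmd11 56.7 and 27.8 TPM. Psmd13 had 70.2 and 4.71 TPM, Psmd12 25.2 and 2.97 TPM, and Psmd7, the inactive partner of the deubiquitinase, 15.5 and 4.81 TPM. The deubiquitinase gene Psmd14 was the lowest of the lid in both libraries, with 2.85 TPM in replicate 1 and 0.470 TPM in replicate 2.

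Over the 31 constitutive core, base and lid genes, the order of levels was largely kept between the libraries, with a Spearman rho of 0.87 and a Pearson r of 0.85 on the log2 scale. This is a description across genes of 2 libraries with the same annotation, and genes are not independent replicates. In the order by mean level, the ranges of the 2 values overlapped for 29 of the 30 pairs of neighbours, the exception being Psmb4 above Psmc4. Level went with base composition: over the 38 genes with a mean of at least 1 CPM (counts-per-million), Spearman's rho of mean TPM with the GC content of the leading transcript was 0.64, and over all 8867 genes at that level with a GC value it was 0.39. Psmc6, at 37.0% GC the lowest of the 45 genes, had 2.57 and 0.120 TPM, and Psmd3, at 58.3% the highest, had 120 and 131 TPM. The part of GC content in these levels was not tested.

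The catalytic paralogs of the immunoproteasome were compared with the constitutive subunit each replaces, as the log2 ratio of TPM with 0.1 TPM added to each. The folds and their counting intervals come from counts over effective length, with nothing added, and are not those log2 ratios in linear form. Psmb8 (ENSMUSG00000024338.10, chromosome 17, 34197721 to 34201454, plus strand) had 8.00 counts in replicate 1 and 2.00 in replicate 2, or 0.0800 and 0.120 TPM. Psmb5, which it replaces, was higher by 1427-fold in replicate 1 (exact 95% counting interval 724 to 3307) and by 566-fold in replicate 2 (156 to 4685). With 0.1 TPM added, the log2 ratios of Psmb8 over Psmb5 were -9.28 and -8.27, a mean of -8.77 ± 0.72 (SD, n = 2). Psmb9, beside it on chromosome 17 (34181987 to 34187764, minus strand), had 2.00 counts in replicate 1 and 0 in replicate 2. Psmb6, which it replaces, was 6607-fold higher in replicate 1 (1828 to 54563). In replicate 2 it was at least 186-fold higher, the lower end of the exact interval. In both libraries the transcripts of these catalytic positions were thus almost wholly of the constitutive gene.

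Psmb10 differed from this pattern. It had 645 counts and 8.37 TPM in replicate 1, where Psmb7, which it replaces, had 6.92 TPM, and 8.00 counts and 0.630 TPM in replicate 2, where Psmb7 had 1.61 TPM. The log2 ratio was 0.27 in replicate 1 and -1.23 in replicate 2, a mean of -0.48 ± 1.06, so that neither gene was higher beyond the spread. The counting interval of Psmb7 over Psmb10 ran from 0.730-fold to 0.937-fold in replicate 1, below equal levels, and from 0.942-fold to 7.37-fold in replicate 2, which included them. Of the immunoproteasome subunits, Psmb10 alone reached 1 TPM, and only in replicate 1.

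Psmb11, the thymus-specific counterpart of Psmb5, had 0 counts in replicate 1 and 2.00 in replicate 2 (0.0400 TPM). Psmb5 was at least 8583-fold higher in replicate 1, the lower end of the exact interval, and 1555-fold higher in replicate 2 (429 to 12873). Psma8, the testis-specific counterpart of Psma7, had 0 counts in both libraries. Taking 3 counts as the limit, this allowed up to 0.0282 TPM in replicate 1 and 0.172 TPM in replicate 2. By the exact interval, Psma7 was at least 1124-fold higher in replicate 1 and at least 104-fold higher in replicate 2. None of 7 other thymic epithelial and testis genes listed for context reached 1 TPM, and 5 of them were at 0 in both libraries. Psmb5 and Psmb11 lie 3.41 kb apart on chromosome 14, and Psmb9 and Psmb8 lie 9.96 kb apart.

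**Figure D2:**
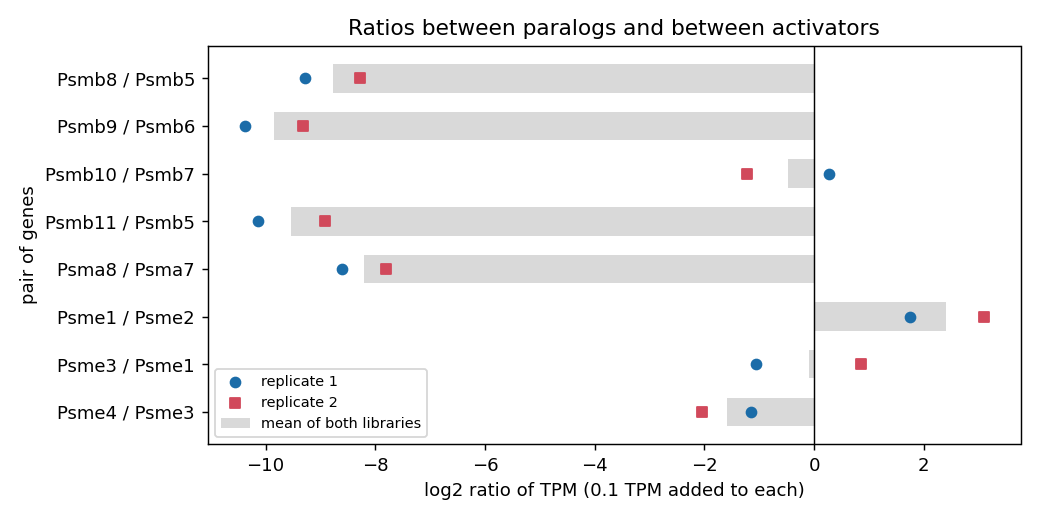
log2 ratio of TPM, with 0.1 TPM added to each value, for 5 pairs of core paralogs and 3 pairs of activator genes; points are the 2 libraries and bars their mean. Psmb8, Psmb9, Psmb11 and Psma8 lie far below their constitutive counterparts in both libraries, while Psmb10 and Psme3 lie on opposite sides of 0 in the 2 libraries.

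The activators, which open the core without the ATPase ring, had a median of 28.2 TPM in replicate 1 and 33.8 TPM in replicate 2. Apart from the tissue paralogs, they were the class with the higher median in replicate 2. Psme1 and Psme2 encode the alpha and beta subunits of the interferon-inducible activator PA28. Psme1 had 94.0 and 76.8 TPM and Psme2 had 28.2 and 8.95 TPM, a log2 ratio of 2.41 ± 0.96, with Psme1 higher in both libraries. These subunits form a joint ring, and their genes lie 5.91 kb apart on chromosome 14. Psme2 has a near-identical copy, Psme2b, with 12.1 estimated counts in replicate 1 and 0 in replicate 2, and how reads were split between them is uncertain. Psme1 shares exon bases with Emc9 on the other strand.

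Psme3 (ENSMUSG00000078652.5, chromosome 11, 101316213 to 101323537, plus strand), of the nuclear activator PA28 gamma, reached 45.0 TPM in replicate 1 and 139 TPM in replicate 2. Against Psme1 it was lower in replicate 1 (log2 ratio -1.06) and higher in replicate 2 (0.86), and its mean ratio of -0.10 ± 1.36 was within the spread. Psme4, of the large activator PA200, had 20.2 and 33.8 TPM, lower than Psme3 in both libraries, with a log2 ratio of -1.59 ± 0.63. Without a correction for length, in TMM-scaled CPM, that ratio turned to 0.18, and the leading transcript of Psme4 has 6491 bases. Of the 8 ratios computed, 6 kept their sign across the libraries with a mean above the SD, and with 2 libraries a two-sided exact sign-flip test cannot go below p = 0.5.

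The base chaperones hold assembly intermediates of the base and leave the finished particle. Psmd9 reached 51.2 and 29.5 TPM in replicates 1 and 2, Psmd5 had 9.41 and 3.13 TPM, and Psmd10, also known as gankyrin, had 1.09 and 0.550 TPM. Their order was the same in both libraries. Psmc3ip, which is no subunit, had 22.8 and 3.27 TPM, and it shares exon bases with Mlx on the other strand.

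The libraries were then set side by side gene by gene. Estimated counts were rounded and scaled by TMM, and each gene with a mean of at least 1 CPM was put to an exact binomial test, two-sided, adjusted by Benjamini-Hochberg over 8884 genes. A gene was called with an adjusted p under 0.05 and a fold of at least 2. This compares 2 libraries and not conditions, and it covers counting error alone. Of the 45 genes 38 were tested: 1 was called higher in replicate 2, 23 lower (60.5%) and 14 were not called. Over all genes tested, 18.0% were called higher and 29.8% lower, 47.8% in all. At an unadjusted p under 0.05, 7619 of the 8884 genes differed.

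The log2 ratio of replicate 2 over replicate 1 was below 0 for 33 of the 38 genes, beside 4972 of all 8884 genes tested. The median of the 38 was -1.44, against a median of -0.19 and an SD of 1.69 over all genes tested. Scaling by total counts moved the median of all genes to -0.61 and that of the 38 to -1.93 (39 tested), so that the gap between them was -1.25 with TMM and -1.32 with total counts. With total counts, 27 proteasome genes were called lower and 0 higher, and the share of lower among all called genes rose from 62.3% to 78.9%. The 38 genes had a median GC content of 49.8%, and all genes tested 52.5%. With the trend of the ratio on GC content taken out, 19 were called lower and 3 higher, and the medians were -0.99 for the 38 and 0.07 for all genes, of which 48.5% of the called ones were lower.

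**Figure D3:**
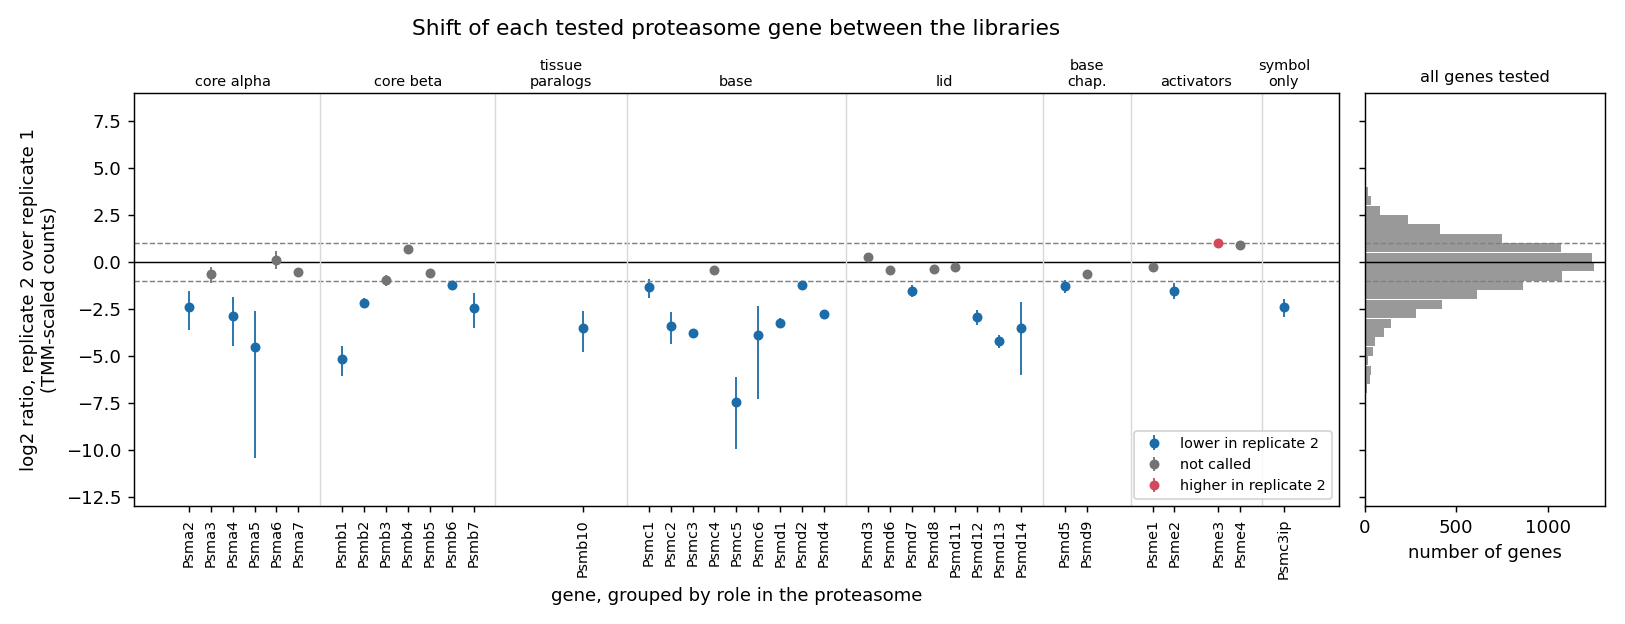
log2 ratio of replicate 2 over replicate 1 from TMM-scaled counts for the 38 genes tested, by role, with exact 95% counting intervals (left), and the number of all genes tested per bin of the same ratio (right); dashed lines mark 2-fold. Most points lie below 0, Psmc5 is the lowest at -7.45, and Psme3, at 1.03, is the 1 gene called higher.

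In the base 8 of the 9 genes of the rule were lower in replicate 2, with a median log2 ratio of -3.24. Adrm1, a base subunit outside the rule, was called higher, with a log2 ratio of 2.33. With the GC trend taken out, Psmd2 (-0.73) and Psmc1 (-0.75) were no longer called. Psmc5 (ENSMUSG00000020708.8, chromosome 11, 106256154 to 106263120, plus strand), an ATPase gene, had 4104 counts in replicate 1 and 3 in replicate 2, and was 204-fold lower in replicate 2 (interval 69.7 to 989; adjusted p = 9.75e-240, exact binomial test). Psmc3 had 15414 and 165 counts and was 13.9-fold lower, and Psmd1 had 7908 and 124 counts and was 9.50-fold lower. Psmc3 shares exon bases with Slc39a13 on the other strand (1876 and 175 counts) and Psmd1 with Gm21972 on the same strand (296 and 3.82 counts). The ATPase gene Psmc4, with 8021 and 887 counts, was the base gene not called, at 1.35-fold lower. A ring of 6 ATPases thus held the largest shift of the 38 genes and a gene within 1.5-fold.

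In the lid 4 of the 8 genes of the rule were called lower, Psmd7, Psmd12, Psmd13 and Psmd14, and the median was -1.0. Sem1, a lid subunit outside the rule, was called lower, with a log2 ratio of -3.40. Psmd13 had 8741 and 69.0 counts and was 18.9-fold lower, while Psmd3, with 16118 and 2911 counts, was 1.21-fold higher and not called. Psmd13 shares exon bases with Sirt3 on the other strand, which had 1153 and 107 counts. Psmd11, Psmd8 and Psmd6 had log2 ratios of -0.28, -0.40 and -0.46 and were not called.

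Among the beta subunits 4 of 7 were lower, Psmb1, Psmb2, Psmb6 and Psmb7, with a median of -1.20. Psmb1 (ENSMUSG00000014769.9, chromosome 17, 15475021 to 15499751, minus strand) had 3445 and 14 counts, a 36.7-fold fall (21.8 to 67.2; adjusted p = 2.89e-181, exact binomial test). Psmb4, with 17832 and 4330 counts, was 1.63-fold higher and not called at 2-fold. With the GC trend taken out, the log2 ratio of Psmb4 was 1.14 and it was called higher. Of the 6 alpha subunits tested, Psma2, Psma4 and Psma5 were lower, and the median was -1.53. Psma6 had a log2 ratio of 0.12 and Psma7 one of -0.52, and neither was called. Psma1 was under the count minimum.

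The activators split. Psme3, with 7225 and 2201 counts, was 2.04-fold higher in replicate 2 (1.95 to 2.14), close to the 2-fold limit, and with total counts its log2 ratio of 1.03 became 0.63 and the call was lost. Psme4, with 8560 and 2394 counts, was 1.88-fold higher and not called. Psme2 was 2.92-fold lower, and Psme1 lay within 1.19-fold. Of the others, Psmb10 was 12-fold lower (6.06 to 28.0), Psmc3ip 5.40-fold and Psmd5 2.45-fold, while Psmd9, at 1.57-fold lower, was not called.

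The shift was set beside properties of the transcripts. Across the 38 genes, Spearman's rho of the log2 ratio was 0.21 with GC content and -0.04 with the length of the leading transcript, against 0.27 and 0.11 across all genes tested with a GC value. With mean TPM, rho was 0.53 across the 38 and 0.19 across all 8884. The more abundant proteasome genes thus tended to have higher ratios, and since both values come from the same libraries this is given as a description. Distance of the ratio from 0 was not measured. The part of depth, GC content and transcript length in the shift was not tested beyond the fit with the GC trend taken out.

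**Figure D4:**
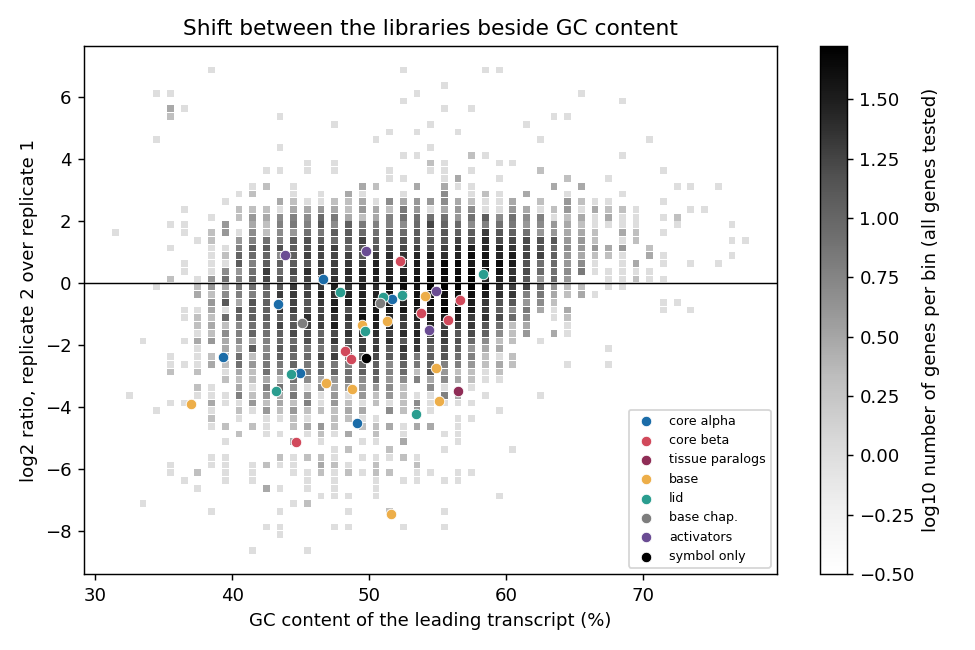
log2 ratio of replicate 2 over replicate 1 against the GC content of the leading transcript; grey squares count all genes tested per bin (log10 colour scale) and coloured points are the 38 proteasome genes by role. Most coloured points lie below 0, and Psmc5, at 51.6% GC, is the lowest of them.

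Of 18 genes with at least 10 TPM in both libraries, 17 have more than 1 annotated transcript. The leading transcript, the one with the largest share of its gene's TPM, was the same in both libraries for 14 of the 17 (82.4%), beside 67.7% of 3060 genes at that level. Psmb3-201, Psmd2-201, Psmd3-201, Psmd8-202 and Psme4-201 each held at least 92.3% in both libraries. The genes that changed their leading transcript were Psmd6, Psmd9 and Psme3. In Psmd6, a transcript with a retained intron, Psmd6-203, held 82.7% of the gene's TPM in replicate 1 and 0% in replicate 2, and the coding Psmd6-201 held 100% there. In Psmd9 the coding Psmd9-201 held 52.3% in replicate 1 and the noncoding Psmd9-202 held 95.9% in replicate 2. In Psme3 the leading coding transcript was Psme3-201 in replicate 1 (90.8%, 2664 bases) and Psme3-204 in replicate 2 (51.5%, 698 bases).

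These shares enter the TPM of a gene through its mean transcript length. For Psme3 the log2 ratio between the libraries was 1.03 from counts and 1.63 from TPM, and for Psmd6 it was -0.46 and -1.39. In Psmb2 the noncoding Psmb2-202, of 547 bases, led in both libraries, with 62.6% and 58.2%. Shares of overlapping isoforms from short reads are model estimates.

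Genes that build or work with the proteasome were taken from lists of their own. Of 16 assembly factors and associated proteins, the subunits Adrm1 and Sem1 among them, 4 were called higher in replicate 2 and 7 lower. Over all genes tested, 18.0% were called higher and 29.8% lower. The median log2 ratio of the 16 was -0.88, against -0.19 over all genes tested. The ubiquitin receptor gene Adrm1 had 399 and 1837 TPM, the highest level of this list, and Akirin2, of a factor for nuclear import of proteasomes, was next by the mean of both libraries, with 100 and 188 TPM. The largest change upward was that of Zfand5, a proteasome-binding zinc finger protein gene, with 47.6 and 223 TPM and a log2 ratio of 2.36. The core assembly chaperone gene Psmg2 had 212 counts in replicate 1 and 0 in replicate 2. By the exact interval its log2 ratio was at most -3.09.

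Of 14 ubiquitin genes, shuttle factors and segregase genes, 5 were called higher and 4 lower, beside 18.0% and 29.8% of all genes tested. Their median was 0.11, nearer to 0 than that of the subunits. The polyubiquitin gene Ubb had 1963 and 211 TPM. The largest shifts in the list were those of Ufd1, a cofactor of the segregase Vcp, with 10.2 and 39.7 TPM (log2 ratio 2.23), and of Ubb (-2.65). Of 15 genes known to regulate proteasome genes, 14 were tested, with a median of -0.37. Of these 14, 1 was called higher and 2 lower, beside the same 18.0% and 29.8% of all genes tested. Mafk and Mafg, small MAF partners of NFE2L1 at antioxidant response elements, were the highest by the mean of both libraries, with 213 and 150 TPM and 105 and 246 TPM. Nfe2l1 itself had 31.8 and 12.7 TPM, and its log2 ratio of -0.59 was not called. Nfe2l3 had 0 counts in both libraries. The called genes were Maff (1.14), Nfya (-1.42) and Nfyc (-1.54).

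Of 18 genes of antigen presentation and interferon response, 7 reached 1 TPM in both libraries and 3 were at 0 in both. The highest by the mean of both libraries were Tapbp, a peptide-loading chaperone gene, with 60.5 and 51.6 TPM and the class I heavy chain gene H2-D1 with 49.6 and 34.5 TPM. Of the 8 tested, 2 were called higher and 1 lower, beside 18.0% and 29.8% of all genes tested. H2-K1 rose from 8.00 to 51.0 counts (log2 ratio 5.34), and the peptide transporter gene Tap2 fell by 1.12 on the log2 scale. Tap1, which shares exon bases with Psmb9 on the other strand, had 20.0 counts in replicate 1 and 0 in replicate 2. Irf1 and Irf8, interferon regulatory factors, had at most 2.00 counts in either library.

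By position, 10 of the 45 genes lie on chromosome 11 and 6 on chromosome 14, and Psmb4 and Psmd4, the highest genes of replicate 2 and replicate 1, lie 146 kb apart on chromosome 3. Between the libraries Psmb4 had a log2 ratio of 0.70 and Psmd4 one of -2.75, of opposite sign, while the neighbours Psme1 and Psme2 had -0.25 and -1.53, of the same sign. In all, 14 of the genes share exon bases with another gene, 3 of them on the same strand and 12 on the other. Of the annotated pseudogenes of beta subunits, Psmb5-ps had 0 and 1 counts, and Psmb6-ps, Psmb6-ps2 and Psmb7-ps2 had 0 in both libraries.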

How the data were processed

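The 2 polyadenylated RNA libraries make up 1 group; the series title names a later series that supersedes it, which was not used here. Per the text deposited beside the tables, quantification started from alignments to the transcriptome on mm10 with GENCODE M4 (aligner, quantification tool and use of strand not given in the sources used here). Estimated counts, some of them fractional, were deposited per gene and per transcript, by maximum likelihood and as posterior means. The deposited TPM and FPKM values are corrected for effective length and depth by the authors. The share of a gene's TPM held by a transcript is a deposited percent. Effective length was shorter than length by 152 bases in replicate 1 and by 130 in replicate 2.

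Symbols and positions came from GENCODE M21 by identifier without version (42462 genes matched, 884 did not), and promoters from RefSeq. Entries that are not genes (transfer RNAs and spike-ins) held 3.00 and 0 counts and were left out. TMM factors (1.15 and 0.871) came from edgeR 4.0.16 in R 4.3.3; log2 ratios carry a prior count of 0.5, and no error model across replicates could be fitted with 1 library a side. DESeq2 1.42.0 gave alternative size factors. Intervals are exact at 95%, and the TPM that a count of 0 allows was taken from a limit of 3 counts. Other steps used matplotlib 3.10.9, scipy 1.17.1, pandas 2.3.3 and numpy 2.4.6 under Python 3.11.15. Every gene of the rule is named; from each other list, the 2 highest by mean TPM and the called genes with the largest ratio in each direction; further genes named there were chosen after their values were seen. A gene that the rule takes in is not reported here. Psme3ip1, of the symbol list, has no entry under that symbol and was not analysed here. Members and lists were chosen with earlier results of these data known.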

Additional observations from a re-analysis of the deposited data

How the results depend on the processing

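No paired analysis was possible because both libraries belong to 1 group. Leaving out a library leaves the value of the other, given throughout; since the SD comes from the same 2 values, it says nothing about stability, and the class median ran from 5.37 to 50.9 TPM for the base and from 0.990 to 5.22 TPM for the alpha subunits. Of the other alternative values of the main results, 74 stayed within the spread or within 1.5 times the count, 24 moved and 1 reversed. For levels and paralog ratios the spread is that same SD, which for the base was 32.2 TPM beside a mean of 28.2 TPM. Staying within it therefore shows little about stability. The mean of the 2 class medians became 0.230 TPM for tissue paralogs with posterior means. With genes under 1 TPM left out it became 70.1 TPM for the base, 23.3 TPM for base chaperones and 45.9 TPM for activators, which had 36.8 TPM without mitochondrial and globin genes. With a pseudocount of 1 the log2 ratios of Psmb8, Psmb9 and Psmb11 to their counterparts were -6.32, -6.65 and -6.43, and that of Psma8 was -4.93. In TMM-scaled CPM the first 3 of these were -7.94, -8.98 and -8.44, and Psme4 over Psme3 reversed to 0.18, since CPM keeps gene length. Psmb9 over Psmb6 was -7.54 with posterior means. Genes of the proteasome called higher in replicate 2 numbered 0 with total counts, 3 at 1.5-fold, 4 with no minimum fold and 3 with the GC trend taken out, which was chosen after seeing the data. With a mean of at least 10 CPM, 13 of 26 were lower. Over all genes, those higher numbered 948 with total counts, 2714 with no filter, 2432 at 1.5-fold and 3292 with no minimum fold, and those lower 1346 at 10 CPM and 4299 with no minimum fold. Lower genes made up 53.9% of those called at 10 CPM. With the GC trend taken out, Psmd2, Psmc1, Psmd5 and Psmd7 were no longer called. Depth limits the genes that rest on few counts in replicate 2, and with 2 libraries no spread of any value is well known.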
